A study of Mus musculus with 34 samples.

Results

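The genes described here are 53 genes of the cell cycle and of mitosis, chosen by name: the Cks subunits Cks2 and Cks1b and the spindle factor Tpx2, the cyclins and their kinases, brakes on entry into S phase, the DNA replication machinery, and the kinases, checkpoint proteins, centromere proteins and motors of mitosis. Of these, 52 were measured, out of 18193 genes with a probe set of a single symbol, and 129 probe sets carried their symbols. Ccnb1, which encodes a mitotic cyclin, had no probe set under its symbol. Each gene was read on 1 probe set, its brightest when averaged across the 34 arrays. The question was whether Cks2 and Tpx2 rose alone or together with a proliferation programme. Both genes were singled out with their rise in these arrays already known.

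The arrays measured mRNA in the cortex of mice aged 15 weeks, with 1 Affymetrix whole-genome mouse array for each of 34 mice. There were 8 WT mice, 8 Hdac4HET mice with 1 targeted allele of Hdac4 (a class IIa histone deacetylase), 9 R6/2 mice and 9 Dble::R6/2 mice. R6/2 mice are hemizygous for a transgene that expresses exon 1 of human huntingtin with an expanded CAG repeat, a model of Huntington's disease, and Dble::R6/2 mice carried both the transgene and the targeted Hdac4 allele. The 2 mutations came together by crossing R6/2 males with Hdac4HET females, all on a mixed CBA and C57Bl/6 background. Loss of Hdac4 was thus of 1 allele and not confined to a cell type, and the arrays are of a single age in a progressive disease. Whole cortex was extracted, so that fewer cells of a type and less RNA per cell cannot be told apart in any value below.

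Dividing cells express the cell cycle genes in order. Cyclins of the D and E types drive G1 and the entry into S phase, the Mcm2 to Mcm7 helicase opens the replication origins, and Cdk1 with the A and B cyclins starts mitosis. Cks proteins are small subunits that bind the cyclin-dependent kinases and help them to recognise substrates that are already phosphorylated, and Cks1b also serves the ubiquitin ligase that removes the inhibitor p27. Tpx2 loads onto spindle microtubules and activates the kinase Aurora A. Neurons have left the cell cycle, and in adult cortex most division is that of glial precursors, so the mRNA of mitotic genes is usually scarce there.

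Promoter elements known from cell cycle genes are the CCAAT box, bound by NF-Y, and the CHR element TTTGAA, bound by the DREAM and B-Myb complexes. The stretches below are the 250 bases before the start of transcription, in the direction of the gene, from RefSeq on GRCm38.p6. They are shown for the 2 genes with the largest changes that had a promoter entry, for the helicase subunit and the cytokinesis gene that follow them, and for Cdk1, the mitotic kinase whose mRNA did not pass the test. Capitals mark CCAAT or its other strand ATTGG, and TTTGAA or its other strand TTCAAA.

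Cks2 (chr13:51644982-51645231, plus strand): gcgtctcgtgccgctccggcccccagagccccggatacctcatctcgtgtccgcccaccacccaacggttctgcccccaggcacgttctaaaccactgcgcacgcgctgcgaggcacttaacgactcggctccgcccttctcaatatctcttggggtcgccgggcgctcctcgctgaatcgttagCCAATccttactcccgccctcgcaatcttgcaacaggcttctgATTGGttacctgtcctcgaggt
Cks1b (chr3:89418292-89418541, minus strand): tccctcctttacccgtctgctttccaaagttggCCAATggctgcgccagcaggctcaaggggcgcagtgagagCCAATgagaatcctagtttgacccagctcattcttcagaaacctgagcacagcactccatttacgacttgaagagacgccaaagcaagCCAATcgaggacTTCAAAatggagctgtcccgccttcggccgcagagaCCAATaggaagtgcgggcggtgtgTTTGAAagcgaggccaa
Racgap1 (chr15:99651657-99651906, minus strand): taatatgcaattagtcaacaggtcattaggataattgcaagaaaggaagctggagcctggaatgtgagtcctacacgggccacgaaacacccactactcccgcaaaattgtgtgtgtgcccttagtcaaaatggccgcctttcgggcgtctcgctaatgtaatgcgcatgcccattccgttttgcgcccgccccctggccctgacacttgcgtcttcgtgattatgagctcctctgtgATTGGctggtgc
Mcm7 (chr5:138171884-138172133, minus strand): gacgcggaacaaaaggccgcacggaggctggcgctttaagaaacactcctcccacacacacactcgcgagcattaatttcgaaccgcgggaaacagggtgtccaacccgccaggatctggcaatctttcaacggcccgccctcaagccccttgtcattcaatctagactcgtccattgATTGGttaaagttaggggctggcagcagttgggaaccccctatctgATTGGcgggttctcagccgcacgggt
Cdk1 (chr10:69352913-69353162, minus strand): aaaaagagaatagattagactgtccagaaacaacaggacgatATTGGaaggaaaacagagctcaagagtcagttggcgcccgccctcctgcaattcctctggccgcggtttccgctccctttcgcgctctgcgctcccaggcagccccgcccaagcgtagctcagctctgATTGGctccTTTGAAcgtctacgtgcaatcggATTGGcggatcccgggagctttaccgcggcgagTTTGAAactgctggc

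The Cks2 stretch held 2 CCAAT boxes and 0 TTTGAA elements, and that of Cks1b held 4 and 2. Racgap1 had 1 CCAAT box and Mcm7 had 2, neither with TTTGAA, whereas Cdk1 had 3 CCAAT boxes and 2 TTTGAA elements. Over the 42 measured members with a promoter entry, CCAAT was found on either strand in 31 (73.8%), against 33.8% of 32851 promoters of the same length, and TTTGAA in 11 (26.2%) against 16% of all promoters. Of the 14 members with an entry that were called higher in R6/2 mice, 12 held CCAAT, as did 19 of the 28 that were not. The variant TTCGAA was in 3 members (7.14%, against 1.34% of all promoters), and the E2F elements TTTCCCGC, TTTGGCGC and TTTCGCGC were in 2, 2 and 3 (4.76%, 4.76% and 7.14%, against 0.895%, 0.417% and 0.256%). Both members with TTTGGCGC were replication helicase subunits, Mcm5 and Mcm6. A match of letters is a description and not evidence of binding.

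Values are on the authors' log2 scale, where a difference of 1 is a 2-fold change, and they ran from 2.04 to 14.1 with array medians between 5.44 and 5.52. Hdac4 itself was lower by 0.48 ± 0.06 (SE) in Hdac4HET than in WT mice on its brightest probe set (7.47 to 7.74 against 7.81 to 8.20, limma adjusted p = 0.0036), every Hdac4HET array lying below every WT array. In Dble::R6/2 against R6/2 mice the same probe set differed by -0.33 (7.32 to 7.80 against 7.54 to 8.14, adjusted p = 0.691) and a second one by -0.61 (adjusted p = 0.00033). In 4 control arrays prolactin, a pituitary hormone, was high, at 10.4, 12.1 and 10.6 in WT replicates 2, 6 and 7 and 9.22 in Hdac4HET replicate 1, against at most 6.04 elsewhere. R6/2 replicate 2 had the highest mean of epidermal markers, 6.62 (other R6/2 arrays from 5.56 upwards, WT 5.37 to 5.66). In 15 of 34 arrays the labelled sex went against the Xist signal. The 34 arrays of different mice correlated within a genotype at no less than 0.973.

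Across the 52 measured members, 18 (34.6%) were called higher and 4 (7.69%) lower in R6/2 than in WT mice, where a call is a limma adjusted p of 0.05 or less over all 45037 probe sets. Over all 18193 genes the same calls took in 20.2% and 11.8%. In Dble::R6/2 against Hdac4HET mice, 19 members (36.5%) were higher and 5 (9.62%) lower, against 18.3% and 11.7% of all genes. The median change of the members was small in both comparisons, 0.07 and 0.08, beside 0.02 and 0.02 for all genes. These 2 comparisons share no array, and 16 members were called higher in both, 4 lower in both and 26 in neither. A further 5 were called higher and 1 lower in 1 comparison only, and 0 were called in opposite directions. Cks2 was thus accompanied by a minority of the cell cycle genes, and the rise of Tpx2 held for the chosen probe set and not for the one brightest in WT and Hdac4HET mice, where Tpx2 gave -0.20 (adjusted p = 0.181) and 0.07 (adjusted p = 0.654).

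The calls were spread unevenly over the roles, which was not tested. Of the 10 replication and nucleotide genes, 5 were called higher and 0 lower in each comparison, with median changes of 0.17 and 0.29, where 20.2% and 18.3% of all genes were higher. The 26 genes of mitosis spanned the mitotic cyclins to cytokinesis, without Tpx2 and Cdc25b. Of these, 6 were higher and 2 lower (23.1% higher, median 0.04) in R6/2 against WT mice. In Dble::R6/2 against Hdac4HET mice 8 were higher and 3 lower (30.8% higher, median 0.04). In the first comparison the share of mitosis genes was close to that of all genes. Most of these mitosis genes, however, lay below the median of all probe sets, where 6.47% of all genes were higher in that comparison. Of the 6 called higher, Cdc20, Birc5 and Ect2 lay below that median. Smc2, Smc4 and Racgap1 lay above it, where 28.6% of all genes were higher, so neither share is a like background for all 26. Without Cks2, Cks1b and Tpx2, 15 of 49 members (30.6%) and 16 of 49 (32.7%) were higher, with median changes of 0.03 and 0.08. Calls were more frequent among bright probe sets: of the 24 members whose mean lay above the median of all probe sets, 14 (58.3%) were higher in R6/2 mice, against 28.6% of all genes above it, while of the 28 below it 4 (14.3%) were, against 6.47%. In Dble::R6/2 against Hdac4HET mice the shares were 54.2% against 25.9% above it and 21.4% against 5.82% below it. In both comparisons the called members above it included Cks2 and Cks1b and those below it Tpx2, the set picked for its known rise. These shares are therefore a description only.

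**Figure D1:**
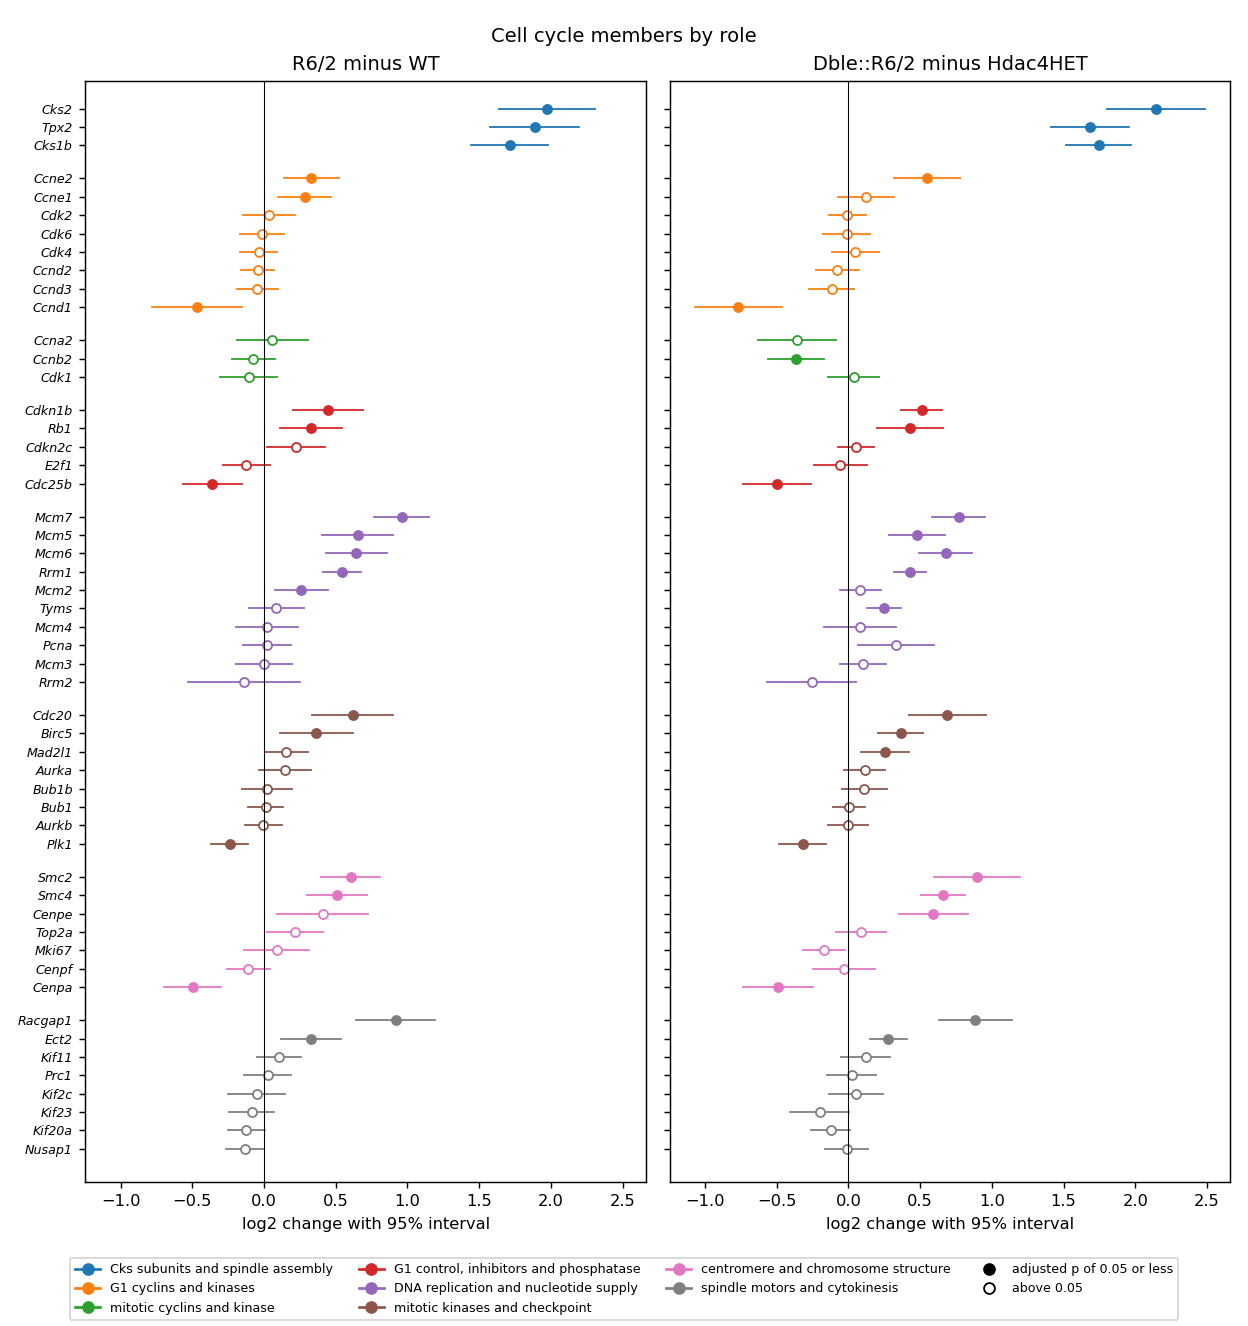
Log2 change (x axis) of each of the 52 measured members (y axis, grouped by role and coloured by it) in R6/2 against WT mice, left, and in Dble::R6/2 against Hdac4HET mice, right. Points are limma estimates with 95% intervals and filled points have an adjusted p of 0.05 or less. Cks2, Cks1b and Tpx2 stand between 1.69 and 2.14, apart from every other member, and no other member exceeds 0.96. For Tpx2 this holds on the probe set drawn. On the one brightest in WT and Hdac4HET mice it gave -0.20 and 0.07.

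Cks2 had the largest change of the members. Its log2 level lay at 5.31, 5.80 and 6.02 (lowest, median and highest array) in WT mice and at 4.95, 5.67 and 6.04 in Hdac4HET mice. It lay at 6.95, 7.74 and 8.23 in R6/2 mice and at 6.98, 7.85 and 8.07 in Dble::R6/2 mice. All 18 arrays with the transgene were above all 16 without it. The change was 1.97 ± 0.16 (SE, 95% interval 1.64 to 2.31, limma adjusted p = 5.32e-08) in R6/2 against WT mice, a 3.93-fold rise, and 2.14 ± 0.16 (1.80 to 2.49, adjusted p = 1.5e-08), a 4.42-fold rise, in Dble::R6/2 against Hdac4HET mice. A second probe set rose by 2.07 and 2.21, again with no overlap. Ranked by rise among the 18193 genes, Cks2 stood at 8 in the first comparison and at 7 in the second. The brightest Cks2 probe set is of a type whose probes may match more than 1 transcript, which the second is not, and the same holds for the brightest probe sets of Mcm5, Mcm7, Cdc20 and Ccne1.

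Cks1b, the close relative of Cks2, rose nearly as much. It ranged from 6.12 to 6.95 (median 6.50) in WT, from 6.38 to 6.85 (6.55) in Hdac4HET, from 7.92 to 8.70 (8.19) in R6/2 and from 7.75 to 8.63 (8.33) in Dble::R6/2 mice. The groups with and without the transgene did not overlap. The changes were 1.71 ± 0.13 (SE, adjusted p = 2.46e-08) and 1.74 ± 0.11 (adjusted p = 1.19e-09), or 3.28-fold and 3.35-fold, and a second probe set rose by 1.15 and 1.38. Its ranks by rise among all genes were 12 and 9.

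For Tpx2 the reading turned on the probe set. On its brightest probe set across all arrays, its level was 3.48, 3.76 and 4.21 (lowest, median and highest) in WT, 3.35, 4.12 and 4.35 in Hdac4HET, 5.31, 5.59 and 6.61 in R6/2 and 5.30, 5.71 and 6.11 in Dble::R6/2 mice. Every array with the transgene lay above every array without it, by 1.89 ± 0.15 (SE, adjusted p = 4.03e-08, 3.70-fold) and 1.69 ± 0.13 (adjusted p = 1.65e-08, 3.22-fold). Of the other 3 probe sets, the dimmest rose as well, by 0.71 (adjusted p = 4.53e-05) and 0.85 (adjusted p = 2.05e-05), with no overlap. The remaining pair gave -0.20 (adjusted p = 0.181) and -0.10 (adjusted p = 0.454) in R6/2 against WT mice, and 0.07 and 0.09 (adjusted p = 0.654 and 0.522) in Dble::R6/2 against Hdac4HET mice. In the arrays without the transgene the first of that pair was the brightest, with a mean of 4.50 in WT mice against 3.76. Had the probe set been chosen by those arrays, Tpx2 would not have been called, and it was the only one of the 52 members for which this choice took another probe set. The mean of all 4 probe sets rose by 0.57 and 0.67.

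**Figure D2:**
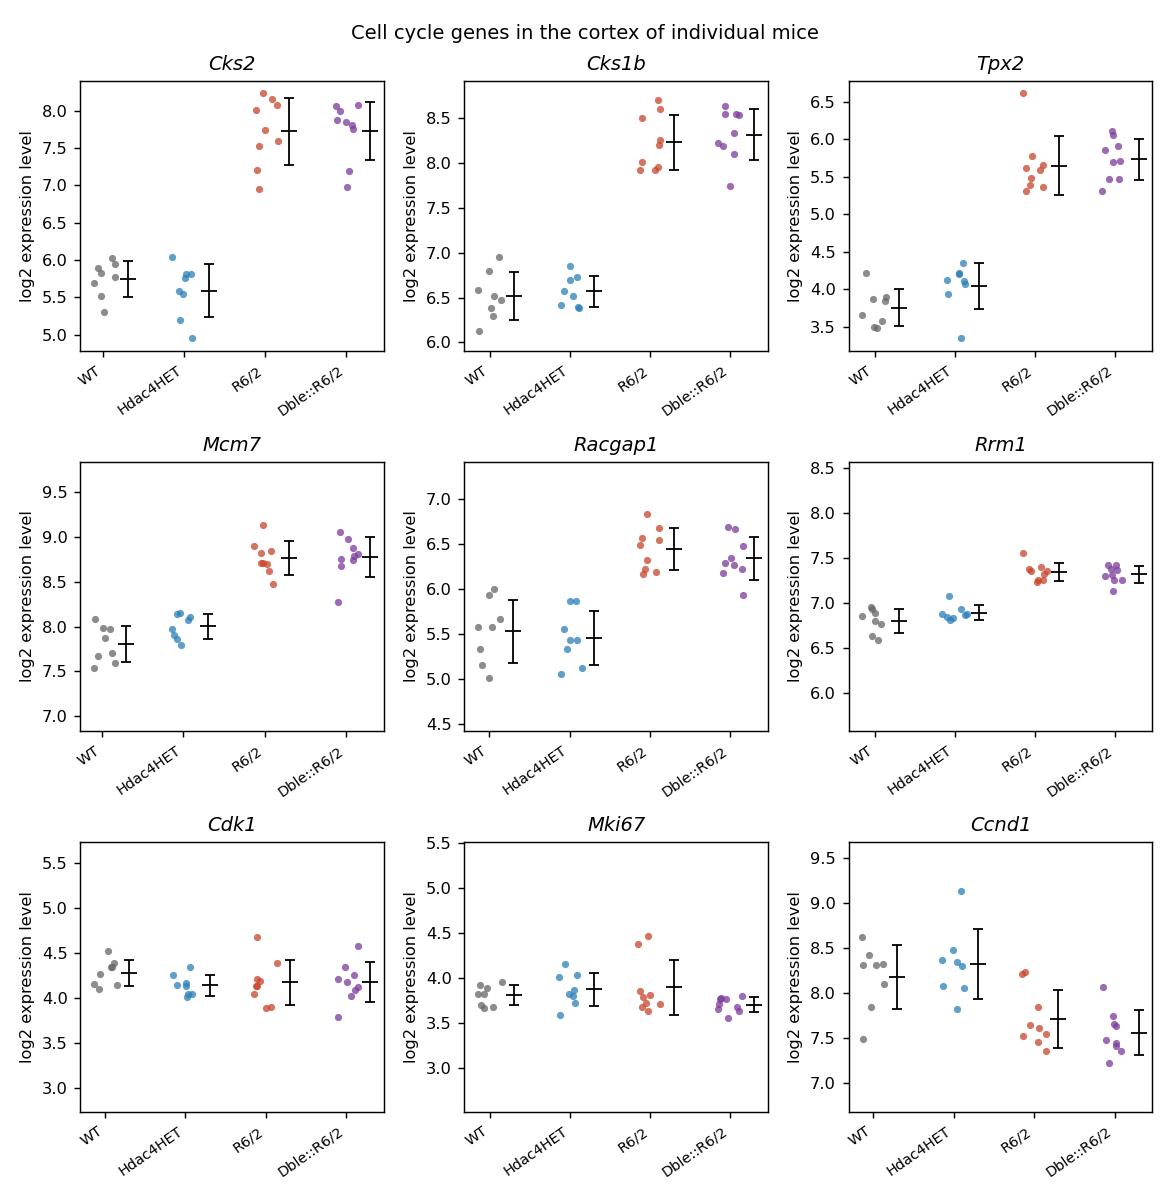
Log2 level (y axis, a scale of its own for each gene) of 9 members in each mouse (points) by genotype (x axis), with the mean and SD as a bar. Cks2, Cks1b, Tpx2, Mcm7 and Rrm1 have all transgenic arrays above all others, and Racgap1 has them above the controls within each comparison. Tpx2 is drawn on its brightest probe set across all arrays. Cdk1 and Mki67 overlap across the 4 genotypes, and Ccnd1 is lower with the transgene.

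Levels of Cks2 and Tpx2 were also set against each other across the mice of a genotype. Pearson's r was 0.67 in R6/2 mice (n = 9, exact two-sided permutation p = 0.0341, 0.137 adjusted over 4 genotypes) and Spearman's rho was 0.82 (exact permutation p = 0.0108, adjusted 0.0431). Without the 2 mice farthest from the median of Cks2, r was 0.61 (exact permutation p = 0.1, adjusted 0.400) and rho 0.61 (exact permutation p = 0.167, adjusted 0.474), so that neither passed. With the mean of each gene's probe sets rho was 0.47 (exact permutation p = 0.213, adjusted 0.283). In Dble::R6/2 mice r was 0.59 (exact permutation p = 0.1, adjusted 0.200) and rho 0.63 (adjusted 0.152), and in WT and Hdac4HET mice r was 0.10 and 0.18 (adjusted exact permutation p = 0.802 for both).

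The G1 cyclins did not move as a group: of the 8 G1 cyclins and kinases, 2 were higher and 1 lower in R6/2 against WT mice, and 1 higher and 1 lower in Dble::R6/2 against Hdac4HET mice. The shares higher were 25% and 12.5%, beside 20.2% and 18.3% of all genes, and 12.5% were lower in each, beside 11.8% and 11.7%. Ccnd1, the cyclin D1 gene that couples growth signals to entry into the cycle, fell. It lay at 7.49, 8.31 and 8.62 (lowest, median and highest) in WT mice and at 7.35, 7.62 and 8.23 in R6/2 mice, and at 7.83, 8.32 and 9.14 in Hdac4HET and 7.22, 7.48 and 8.07 in Dble::R6/2 mice. The groups overlapped, and the changes were -0.47 ± 0.15 (SE, adjusted p = 0.0261) and -0.77 ± 0.14 (adjusted p = 0.000505). Both other Ccnd1 probe sets fell too, by 0.64 and 0.56 in R6/2 against WT mice. Without the WT arrays high in prolactin the brightest gave -0.38 (adjusted p = 0.178).

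Of the E cyclins, which act with Cdk2 at the start of S phase, Ccne2 was called higher in both comparisons and Ccne1 in one. Ccne2 rose by 0.33 ± 0.09 (SE, adjusted p = 0.0113) and 0.55 ± 0.11 (adjusted p = 0.00086), and Ccne1 by 0.28 ± 0.09 (adjusted p = 0.0205) in R6/2 against WT mice, with 0.12 (adjusted p = 0.419) in the other comparison. Without the WT arrays high in prolactin Ccne1 gave 0.22 (adjusted p = 0.147). The kinases Cdk2, Cdk4 and Cdk6 gave 0.03, -0.04 and -0.02 in R6/2 against WT mice and did not pass the test in either comparison.

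The other D cyclins depended on the probe set. The brightest Ccnd2 probe set changed by -0.04 (adjusted p = 0.638) and -0.08, whereas the second lay at 8.57, 8.77 and 9.04 in WT and 9.12, 9.48 and 9.88 in R6/2 mice, and at 8.41, 8.69 and 8.95 in Hdac4HET and 9.41, 9.76 and 9.94 in Dble::R6/2 mice. On that probe set the groups with and without the transgene did not overlap, with rises of 0.69 and 1.004, and the 5 further Ccnd2 probe sets were not called. Ccnd3 likewise gave -0.05 on its brightest probe set and rises of 0.44 (adjusted p = 0.005) and 0.51 on its other pair in R6/2 against WT mice.

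A list of 5, made of G1 regulators and of Cdc25b, a phosphatase that acts on Cdk1, had 2 higher and 1 lower in each comparison. The 1 lower was Cdc25b. Over all genes 20.2% and 18.3% were higher and 11.8% and 11.7% lower. The inhibitor gene Cdkn1b, which encodes p27, rose. Its level was 8.79, 9.07 and 9.50 (lowest, median and highest) in WT and 9.03, 9.63 and 9.78 in R6/2 mice, and 8.91, 9.03 and 9.13 in Hdac4HET and 9.24, 9.52 and 9.88 in Dble::R6/2 mice. The first pair overlapped and the second did not. The changes were 0.45 ± 0.12 (SE, adjusted p = 0.00767) and 0.51 ± 0.07 (adjusted p = 1.66e-05).

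Rb1, which encodes the retinoblastoma protein that holds E2F factors in check, rose by 0.33 ± 0.10 (SE, adjusted p = 0.0229) and 0.43 ± 0.11 (adjusted p = 0.0064), with 0.16 (adjusted p = 0.064) in the first comparison as the mean of its probe sets. Cdc25b, a phosphatase that activates Cdk1, fell by 0.36 ± 0.10 (adjusted p = 0.0086) and 0.50 ± 0.11 (adjusted p = 0.00284). The inhibitor Cdkn2c and the activator E2f1 did not pass, at 0.22 (adjusted p = 0.104) and -0.12 (adjusted p = 0.285) in R6/2 against WT mice.

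Of the 10 replication genes, 6 encode the ring of Mcm2 to Mcm7, the helicase that unwinds DNA at the fork. Those called higher were Mcm2, Mcm5, Mcm6, Mcm7 and Rrm1 in R6/2 against WT mice, and Mcm5, Mcm6, Mcm7, Rrm1 and Tyms in Dble::R6/2 against Hdac4HET mice. Mcm7 ranged from 7.54 to 8.09 (median 7.79) in WT, from 7.80 to 8.15 (8.02) in Hdac4HET, from 8.47 to 9.13 (8.71) in R6/2 and from 8.28 to 9.05 (8.79) in Dble::R6/2 mice, with no overlap between the groups with and without the transgene. It rose by 0.96 ± 0.09 (SE, adjusted p = 4.03e-07, 1.95-fold) and 0.77 ± 0.09 (adjusted p = 2.49e-06), and all 4 of its probe sets were called higher in both comparisons. Mcm6 ranged from 6.09 to 6.45 (6.29) in WT and from 6.76 to 7.63 (6.85) in R6/2 mice, and from 6.04 to 6.64 (6.36) in Hdac4HET and 6.66 to 7.23 (7.05) in Dble::R6/2 mice. It too was higher in every transgenic array, by 0.64 ± 0.10 (adjusted p = 0.000108) and 0.68 ± 0.09 (adjusted p = 1.12e-05), and its second probe set rose by 1.20 and 1.10.

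The rest of the helicase divided. Mcm5 rose by 0.65 ± 0.12 (SE, adjusted p = 0.000362) and 0.48 (adjusted p = 0.000806). Of its 3 probe sets, 2 were called higher in the first comparison and 1 in the second, and the lowest gave -0.05 and -0.02. Mcm2 passed only in R6/2 against WT mice, at 0.26 ± 0.09 (adjusted p = 0.0337), and there without R6/2 replicate 2 it gave 0.22 (adjusted p = 0.052). Mcm3 and Mcm4 gave 0.00 and 0.02 and passed in neither comparison.

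Rrm1, the large subunit of ribonucleotide reductase, which makes the deoxynucleotides for DNA synthesis, lay from 6.59 to 6.96 (median 6.83) in WT, from 6.82 to 7.08 (6.87) in Hdac4HET, from 7.23 to 7.56 (7.35) in R6/2 and from 7.14 to 7.43 (7.32) in Dble::R6/2 mice. Here too no array with the transgene overlapped one without it, and the rises were 0.54 ± 0.06 (SE, adjusted p = 3.26e-06) and 0.43 ± 0.05 (adjusted p = 7.4e-06). Both other Rrm1 probe sets were not called, at -0.22 and 0.12 in R6/2 against WT mice, and the mean of all 3 gave 0.15 (adjusted p = 0.0511) in Dble::R6/2 against Hdac4HET mice. Its partner Rrm2, whose mRNA is made in S phase, gave -0.14 and passed in neither comparison. Pcna, the sliding clamp of the fork, gave 0.02 (adjusted p = 0.895) and 0.33 (adjusted p = 0.0658), and Tyms, which makes thymidylate, 0.09 (adjusted p = 0.563) and 0.25 ± 0.06 (adjusted p = 0.00302).

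Of the mitotic cyclins and their kinase, 0 of 3 were called higher in either comparison, beside 20.2% and 18.3% of all genes. Cdk1, the kinase that starts mitosis, lay at 4.10, 4.30 and 4.52 (lowest, median and highest) in WT, 4.01, 4.14 and 4.34 in Hdac4HET, 3.88, 4.13 and 4.68 in R6/2 and 3.79, 4.17 and 4.58 in Dble::R6/2 mice. All 4 genotypes overlapped. Its changes of -0.11 (95% interval -0.31 to 0.09, adjusted p = 0.47) and 0.04 (-0.14 to 0.21, adjusted p = 0.838) have upper bounds well under the lower bounds of 1.64 and 1.80 for Cks2. Ccna2, cyclin A2, gave 0.06 (adjusted p = 0.787) and -0.36 (adjusted p = 0.0534), and Ccnb2, cyclin B2, gave -0.07 (adjusted p = 0.51) and a fall, -0.37 ± 0.09 (SE, adjusted p = 0.00711), in Dble::R6/2 against Hdac4HET mice.

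Mki67, the gene of the proliferation antigen Ki-67, was not called either. It ranged from 3.66 to 3.95 (median 3.82) in WT, from 3.59 to 4.15 (3.84) in Hdac4HET, from 3.63 to 4.47 (3.79) in R6/2 and from 3.55 to 3.79 (3.71) in Dble::R6/2 mice. The groups overlapped, and the changes were 0.09 (95% interval -0.14 to 0.32, adjusted p = 0.627) and -0.17 (-0.32 to -0.02, adjusted p = 0.0901). Top2a, the topoisomerase that untangles chromosomes before division, gave 0.22 (adjusted p = 0.0925) and 0.09 (adjusted p = 0.536). The probe sets of Cdk1, Ccna2, Ccnb2, Mki67 and Top2a lay below the median of all probe sets, where few genes of any kind were called, so a small rise in rare cells may not have been detectable.

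Of the 8 mitotic kinases and checkpoint genes, 2 were higher and 1 lower in R6/2 against WT mice, and 3 higher and 1 lower in Dble::R6/2 against Hdac4HET mice. As shares these were 25% and 37.5% higher, beside 20.2% and 18.3% of all genes, and 12.5% lower in each, beside 11.8% and 11.7%. Cdc20, the activator of the anaphase-promoting complex, lay at 4.60, 4.98 and 5.26 in WT and 5.15, 5.45 and 6.32 in R6/2 mice, and at 4.61, 5.04 and 5.22 in Hdac4HET and 5.02, 5.83 and 6.11 in Dble::R6/2 mice. Both pairs overlapped by a little, and the rises were 0.62 ± 0.13 (SE, adjusted p = 0.00182) and 0.69 ± 0.13 (adjusted p = 0.000467). Of the 3 Cdc20 probe sets, 1 was called higher in the first comparison, where the lowest gave -0.12, and 2 in the second. Birc5, which encodes survivin of the chromosomal passenger complex, rose by 0.36 ± 0.12 (adjusted p = 0.032) and 0.36 ± 0.08 (adjusted p = 0.00133), with 0.34 (adjusted p = 0.137) in the first comparison without the WT arrays high in prolactin.

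Plk1, the polo-like kinase of mitotic entry and spindle assembly, went the other way. It lay at 5.20, 5.45 and 5.57 in WT and at 4.99, 5.18 and 5.33 in R6/2 mice, and it fell by 0.24 ± 0.06 (SE, adjusted p = 0.0065) and 0.32 ± 0.08 (adjusted p = 0.00413). The checkpoint gene Mad2l1 gave 0.16 (adjusted p = 0.126) and 0.25 ± 0.08 (adjusted p = 0.0272). Aurka, which encodes the kinase that Tpx2 activates, gave 0.15 (adjusted p = 0.254) and 0.11, and the kinases Aurkb, Bub1 and Bub1b gave -0.00, 0.01 and 0.02 in R6/2 against WT mice, none of them called in either comparison.

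Among the centromere and chromosome genes, both condensin subunits rose on their brightest probe sets. Smc2 ranged from 6.34 to 6.68 (median 6.57) in WT and from 6.69 to 7.55 (7.16) in R6/2 mice without overlap, and from 5.53 to 6.56 (6.17) in Hdac4HET and 6.46 to 7.37 (7.21) in Dble::R6/2 mice with some. The rises were 0.60 ± 0.10 (SE, adjusted p = 0.00012) and 0.90 ± 0.14 (adjusted p = 0.000107). Smc4, its partner in condensin, rose by 0.51 ± 0.10 (adjusted p = 0.000719) and 0.66 ± 0.07 (adjusted p = 1.86e-06). In R6/2 against WT mice 2 of 5 Smc2 and 1 of 3 Smc4 probe sets were called higher, and 4 and 2 in Dble::R6/2 against Hdac4HET mice.

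Cenpa, the histone H3 variant that marks centromeres, fell. It lay at 4.69, 4.85 and 5.02 in WT and at 4.02, 4.38 and 4.72 in R6/2 mice, overlapping at the edge, with changes of -0.50 ± 0.10 (SE, adjusted p = 0.000637) and -0.49 ± 0.12 (adjusted p = 0.00391), and its other probe sets were not called in these comparisons. The kinetochore motor Cenpe gave 0.41 ± 0.15 (adjusted p = 0.0506) and 0.59 ± 0.11 (adjusted p = 0.000707). Without R6/2 replicate 2 the first of these values was 0.28 (adjusted p = 0.032). Cenpf gave -0.11 and -0.03 and was not called.

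The 8 spindle motors and cytokinesis genes held 2 that rose in both comparisons, Racgap1 and Ect2, which act together at the cleavage furrow. That is 25% in each, beside 20.2% and 18.3% of all genes. Racgap1, the GTPase-activating subunit of centralspindlin, ranged from 5.005 to 6.004 (median 5.57) in WT, from 5.05 to 5.87 (5.43) in Hdac4HET, from 6.17 to 6.83 (6.49) in R6/2 and from 5.94 to 6.69 (6.28) in Dble::R6/2 mice. In both comparisons all transgenic arrays lay above the controls, by 0.92 ± 0.13 (SE, adjusted p = 3.88e-05, 1.89-fold) and 0.89 ± 0.12 (adjusted p = 2.06e-05, 1.85-fold). A second probe set gave 0.18 (adjusted p = 0.141) and 0.51 (adjusted p = 0.00178), and the dimmest -0.01 and 0.08. Ect2, the exchange factor for RhoA, rose by 0.33 ± 0.10 (adjusted p = 0.0188) and 0.28 ± 0.06 (adjusted p = 0.00235).

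The motor Kif23, the partner of Racgap1 in centralspindlin, gave -0.09 and -0.20 and was not called. The motors Kif11, Kif20a and Kif2c and the spindle proteins Prc1 and Nusap1 lay between -0.13 and 0.10 in R6/2 against WT mice and passed in neither comparison on their brightest probe sets. Kif11 passed on its dimmest in R6/2 against WT mice, at 0.24 (adjusted p = 0.0157).

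**Figure D3:**
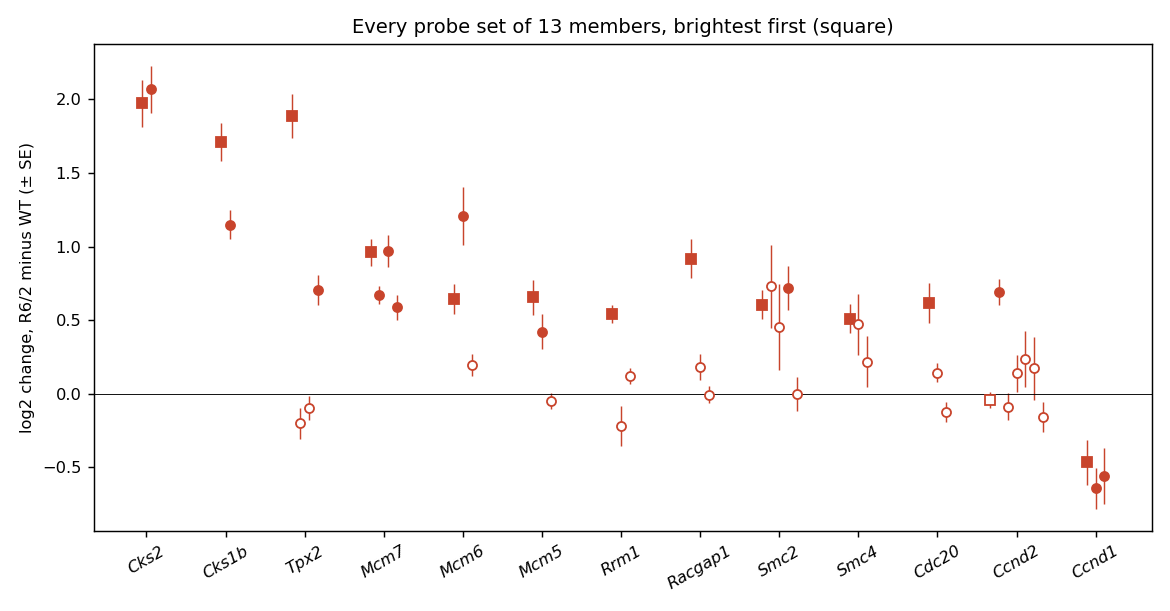
Log2 change in R6/2 against WT mice with its SE (axis in log2 units) for every probe set of 13 members, squares marking the brightest probe set of each gene, and filled symbols an adjusted p of 0.05 or less. All probe sets of Cks2, Cks1b and Mcm7 are called higher and all of Ccnd1 lower, whereas Tpx2, Rrm1, Racgap1 and Ccnd2 have called and uncalled probe sets.

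Over the gene set, 40 members had several probe sets, and 0 of them had probe sets called in both directions in a comparison. Of the members called higher that had several, 15 in each comparison, 7 had a further probe set called higher in R6/2 against WT mice (Cks1b, Cks2, Mcm5, Mcm6, Mcm7, Smc2 and Tpx2), and 9 in Dble::R6/2 against Hdac4HET mice (Cdc20, Cks1b, Cks2, Mcm6, Mcm7, Racgap1, Smc2, Smc4 and Tpx2).

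In 8 members every R6/2 array lay above every WT array (6.31% of all genes did so): Cks2, Cks1b, Tpx2, Mcm6, Mcm7, Rrm1, Smc2 and Racgap1. In 9 every Dble::R6/2 array lay above every Hdac4HET array (4.41% of all genes did so), the same genes without Smc2 and with Cdkn1b and Smc4. These counts include Cks2, Cks1b and Tpx2, the set picked for its known rise. Without that set, 5 of 49 members lay apart in the first comparison and 6 of 49 in the second. In 0 members did all transgenic arrays lie below all controls, against 3.81% and 4.36% of all genes.

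Averaged by mouse, as the mean deviation of a set's genes from the WT mean, Cks2, Cks1b and Tpx2 together ran from -0.28 to 0.17 in WT, from -0.22 to 0.24 in Hdac4HET, from 1.40 to 2.51 in R6/2 and from 1.61 to 2.17 in Dble::R6/2 mice. The 10 replication genes ran from -0.11 to 0.09, from -0.12 to 0.12, from 0.11 to 0.65 and from 0.16 to 0.43. The 26 genes of mitosis ran from -0.11 to 0.12, from -0.20 to 0.07, from -0.00 to 0.34 and from -0.01 to 0.17. The first set was picked for its known rise, so its separation is a description only. For replication the R6/2 mice lay above the WT mice and the Dble::R6/2 mice above the Hdac4HET mice, but the R6/2 mice overlapped the Hdac4HET mice. For mitosis the transgenic mice overlapped the WT mice. R6/2 replicate 2, the array high in epidermal markers, was the highest R6/2 array in all 3 sets, and without it the R6/2 arrays reached 2.14, 0.47 and 0.23.

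**Figure D4:**
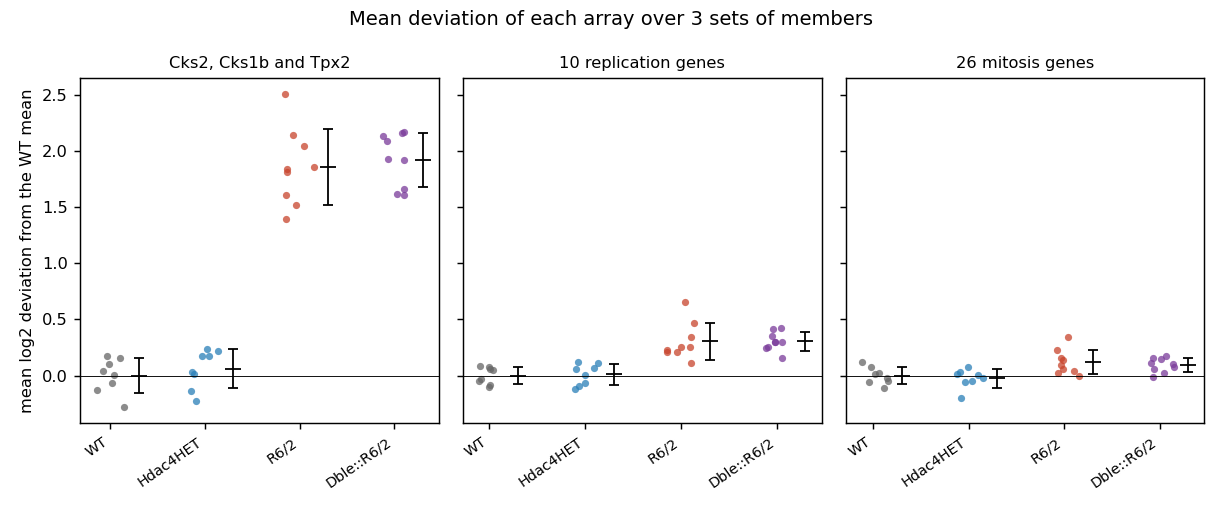
Mean deviation from the WT mean in log2 units (y axis) of Cks2, Cks1b and Tpx2, of the 10 replication genes and of the 26 mitosis genes in each mouse (points) by genotype (x axis), with mean and SD. The R6/2 mean is 1.86 ± 0.34 (SD, n = 9) for the first set, 0.30 ± 0.16 for replication and 0.12 ± 0.11 for mitosis.

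The targeted Hdac4 allele alone moved little in this gene set. In Hdac4HET against WT mice 0 members were called higher and 1 lower, against 1.46% and 1.71% of all genes, and 6 had an unadjusted p under 0.05. In 0 members did the arrays of the 2 groups lie apart, above or below, against 0.165% and 0.192% of all genes. The 1 called was Smc2, at -0.40 ± 0.11 (SE, limma adjusted p = 0.0486), where the groups overlapped. That call was lost in 18 of 28 alternatives, and the mean of the Smc2 probe sets gave -0.05 (adjusted p = 0.876). Cks2 differed by -0.16 (95% interval -0.45 to 0.13, adjusted p = 0.558), Cks1b by 0.05 (adjusted p = 0.826) and Tpx2 by 0.29 (0.02 to 0.56, adjusted p = 0.198). This comparison shares its WT arrays with that of R6/2 mice.

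With the transgene present, no difference made by the Hdac4 allele was detectable in the members. In Dble::R6/2 against R6/2 mice limma called 0 members in either direction, and it called 0.0% of all genes, and 4 members had an unadjusted p under 0.05. Cks2 differed by 0.01 (95% interval -0.36 to 0.38, adjusted p = 0.997), Cks1b by 0.09 (-0.18 to 0.36, adjusted p = 0.961), Tpx2 by 0.09 (-0.22 to 0.40, adjusted p = 0.964) and Smc2 by -0.11 (adjusted p = 0.947). The lower bounds for Cks2, Cks1b and Tpx2 are small beside their rises of 1.71 to 1.97 in R6/2 mice.

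The effect of the transgene was also compared between the 2 Hdac4 backgrounds directly. The interaction was called for 0 members by limma (smallest adjusted p 0.406), with 3 at an unadjusted p under 0.05, and for 0.0% of all genes. It was 0.17 for Cks2 (adjusted p = 0.861) and -0.20 for Tpx2 (adjusted p = 0.794).

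**Figure D5:**
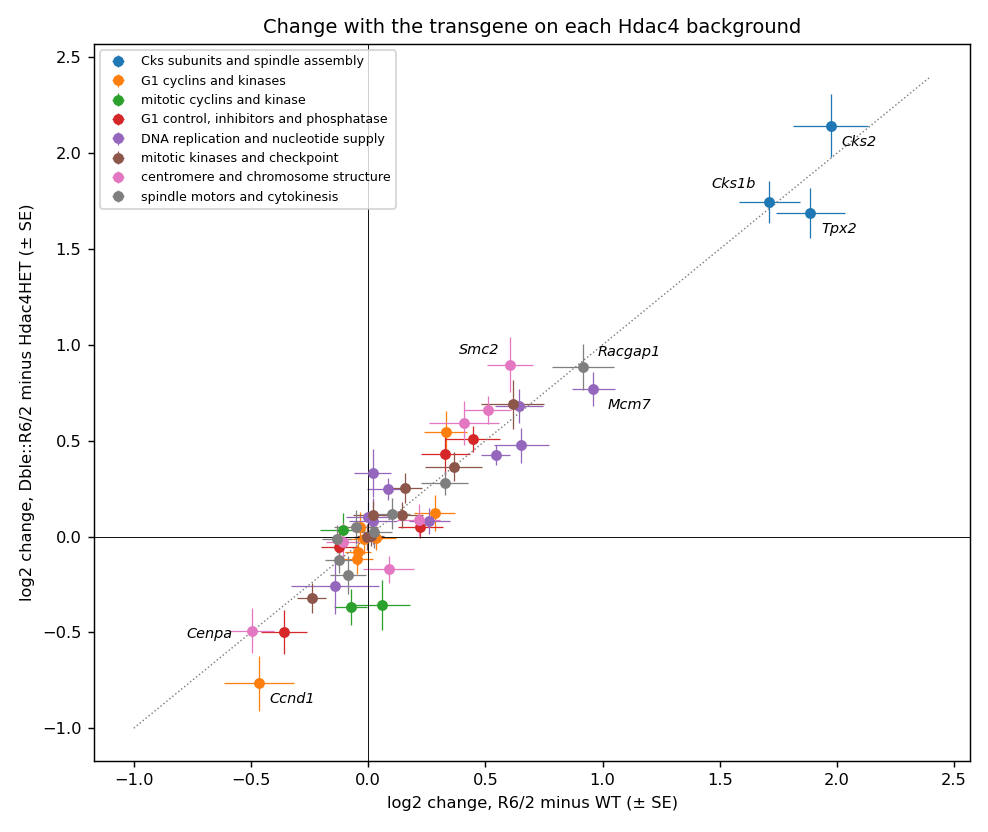
Log2 change with the transgene in R6/2 against WT mice (x axis) and in Dble::R6/2 against Hdac4HET mice (y axis), each ± SE, for the 52 members coloured by role, with the line of equal change. Cks2 (1.97 and 2.14), Cks1b and Tpx2, the last on its brightest probe set across all arrays, lie far along the line. Mcm7, Racgap1 and Smc2 lie between 0.60 and 0.96 on the x axis, and Ccnd1 and Cenpa below 0 on both axes.

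Cell cycle genes outside the set were read from lists of 19 replication, 30 mitosis and 18 inhibitor and arrest genes. In replication 11 of 19 (57.9%, median 0.29) and 10 of 19 (52.6%, median 0.26) were higher and 0 lower. Those called included regulators that are not replication machinery, Gmnn and Cdc25a in both comparisons and Chek1 in R6/2 against WT mice. Rfc4, of the clamp loader, rose by 0.88 ± 0.13 (SE) in R6/2 against WT mice and by 0.52 in Dble::R6/2 against Hdac4HET mice, Prim1, the primase, by 0.69 ± 0.09 and 0.60, and Rpa2, of the single-strand binding complex, by 0.58 ± 0.08 and 0.75. Every transgenic array was above the controls for Rpa2 in both comparisons.

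In mitosis 5 of 30 (16.7%, median 0.08) were higher and 0 lower in R6/2 against WT mice, and 7 (23.3%) were higher and 1 lower in Dble::R6/2 against Hdac4HET mice, beside 20.2% and 18.3% of all genes that were higher. Anln, the furrow scaffold anillin, rose by 0.80 ± 0.14 (SE) and 0.99, and Plk4, the kinase of centriole duplication, by 0.78 ± 0.13 and 0.86, both without overlap. Pttg1, securin, rose by 0.53 (adjusted p = 0.0275) in R6/2 against WT mice, and gave -0.08 in the other comparison. Foxm1 and Mybl2, transcription factors of the mitotic genes, gave -0.07 and -0.14 in R6/2 against WT mice and were not called in either.

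Of the inhibitor and arrest genes 6 of 18 (33.3%) were higher and 2 (11.1%) lower in each comparison. Beside them, 20.2% and 18.3% of all genes were higher and 11.8% and 11.7% lower. In each comparison the 6 included Skp2, which belongs to the ligase that removes p27 and so is not a brake on the cycle. Cdkn1a, which encodes p21, rose by 0.89 ± 0.15 (SE) in R6/2 against WT mice, every R6/2 array lying above every WT array, and by 0.48 (adjusted p = 0.0311) in Dble::R6/2 against Hdac4HET mice. It was also called higher in Hdac4HET than in WT mice. Lin9, of the DREAM complex, rose by 0.33 and 0.35, and Ccng1, cyclin G1, fell by 0.30 and 0.30.

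Markers of the other cells that cortex holds were read beside these genes, and at most 1 of each list was called higher in R6/2 against WT mice. Of all genes 20.2% were higher and 11.8% lower there. The mean log2 level of 7 oligodendrocyte precursor markers ran from 8.40 to 8.70 in WT, 8.37 to 8.54 in Hdac4HET, 8.20 to 8.38 in R6/2 and 7.97 to 8.42 in Dble::R6/2 mice, with 0 called higher and 3 lower in R6/2 against WT mice. For 7 microglial markers it ran from 7.14 to 7.82, 7.30 to 7.59, 6.55 to 7.33 and 6.73 to 7.34, with 0 higher and 5 lower. For 7 markers of progenitors and immature neurons it ran from 7.12 to 7.39, 7.14 to 7.73, 7.14 to 7.47 and 7.06 to 7.36, with 1 higher and 1 lower.

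Endothelial markers ran from 6.95 to 7.29 in WT and 7.13 to 7.38 in R6/2 mice, with 1 of 7 called higher and 0 lower. Astrocyte markers ran from 9.54 to 9.82 in WT and from 9.27 to 9.48 in R6/2 mice, with 1 of 8 higher and 5 lower. Cortical neuron markers ran from 11.61 to 11.73 in WT, 11.45 to 11.73 in Hdac4HET and 10.95 to 11.34 in R6/2 and Dble::R6/2 mice together, with 9 lower in both comparisons. The shares of all genes that were lower were 11.8% and 11.7%. The part of these shifts in the changes of the cell cycle genes was not tested.

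Leaving out the WT arrays high in prolactin gave rises of 2.09 for Cks2, 1.62 for Cks1b and 1.88 for Tpx2 in R6/2 against WT mice, with 14 members higher and 3 lower. Leaving out R6/2 replicate 2 gave 1.91, 1.65 and 1.77, with 18 higher and 4 lower. After adjusting for the sex that Xist shows, the counts were 18 and 4 in R6/2 against WT mice and 19 and 6 in Dble::R6/2 against Hdac4HET mice.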

How the data were processed

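Total RNA of cortex from 34 mice was measured by the authors on Affymetrix arrays of the mouse genome, 1 array per mouse, and arrays of poor quality were removed by them. They deposited log2 expression values, 1 per probe set and array. For background correction, normalization and summary the method is not given in the sources used here. All 34 columns were used and 0 left out.

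Genotypes came from the sample titles. Of 45037 probe sets, 34945 had 1 gene symbol in the platform annotation, 932 several and 9160 none. Pairs of genotypes were compared over all probe sets with limma 3.58.1 (lmFit, eBayes) in R 4.3.3, with no covariate and Benjamini-Hochberg adjustment. The threshold was an adjusted p of 0.05, and the procedure was tested on simulated data. P-values measure the spread between mice, and the number of arrays limits the precision. Correlations used exact permutation over mice with scipy 1.17.1, and plots were drawn with matplotlib 3.10.9.

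The members, role lists and marker lists were chosen with earlier results of these data known. Members named in full are Cks2, Cks1b and Tpx2, up to 3 called members of each role by size of change, and those whose probe sets differ, with up to 3 called genes from each list of other cell cycle genes. Cdk1, Mki67, Cdkn1b and the remaining members were described as well, and Lin9 and Ccng1 were picked after their values were seen. Alternatives were quantile normalization, dim probe sets left out, a variance trend, array weights, sex, a replicate block, the methods' t-test, a single fit of all genotypes, averaging a gene's probe sets, and leaving out arrays. Sex read from Xist, and the probe set brightest in the WT and Hdac4HET arrays, were added after seeing the data. The sample titles do not say that replicate numbers pair the mice, and no pairing was used in the main fits.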

Additional observations from a re-analysis of the deposited data

Results flagged for a closer look

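In 208 pairs of a member and a genotype, 21 had 1 array standing apart from the others by the gap to its nearest neighbour, where chance flags about 1 in 20 groups. R6/2 replicate 2, the array high in epidermal markers, gave 6 of them, each the highest R6/2 level: Tpx2 at 6.61, Rb1 at 9.63, Mcm6 at 7.63, Cenpe at 5.54, Smc4 at 7.09 and Kif2c at 5.32. R6/2 replicate 9 was highest in Rrm1 at 7.56 and in Aurka at 4.88.

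Among the Dble::R6/2 arrays, replicate 1 was lowest in Mcm7 at 8.28 and in Cenpe at 3.91, replicate 2 lowest in Mad2l1 at 6.76, and replicate 5 highest in Mcm2 at 7.09 and lowest in Aurkb at 2.75. Among the Hdac4HET arrays, replicate 7 was lowest in Tpx2 at 3.35 and in Mcm5 at 5.83, replicate 8 highest in Ccne1 at 7.65 and in Cenpf at 4.55, replicate 6 highest in Cdk6 at 5.64, and replicate 2 highest in Rrm1 at 7.08. Among the WT arrays, replicate 1 was highest in Cdkn2c at 6.73 and replicate 7, an array high in prolactin, lowest in Mad2l1 at 6.85.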

How the results depend on the processing

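In R6/2 against WT mice the members called higher ranged from 14 to 20 and those lower from 2 to 4 (main 18 and 4), and leaving out 1 array gave 15 to 20 and 3 to 4. In Dble::R6/2 against Hdac4HET mice they ranged from 14 to 20 and from 2 to 7 (main 19 and 5), and leaving out 1 array gave 18 to 20 and 5 to 7. Only probe sets above the median, which left 24 members to test, gave 2 lower in each comparison. The replicate block gave 18 and 4 in both. In Hdac4HET against WT mice the 1 lower member became 2 with labelled sex and 0 with the replicate block, the methods' t-test, a single fit, averaging of a gene's probe sets, sex read from Xist or without the arrays high in prolactin, and leaving out 1 array gave 0 to 1. The change of Cks2 stayed called, from 1.87 to 2.09 and from 2.05 to 2.24. That of Tpx2 was 0.57 and 0.67 as the mean of its probe sets, and -0.20 (adjusted p = 0.181) and 0.0749 (adjusted p = 0.654) on the probe set brightest in the WT and Hdac4HET arrays, with which 17 and 18 members were higher. Calls were lost for Mcm2 in R6/2 against WT mice with the replicate block (0.24, adjusted p = 0.068), for Rb1 and Cdkn1b there as the mean of their probe sets (0.16 and 0.33, adjusted p = 0.064 and 0.109), for Rrm1 and Tyms likewise in Dble::R6/2 against Hdac4HET mice (0.15 and 0.10, adjusted p = 0.0511 and 0.105), for Mcm2, Rb1, Ccnd1, Ccne1 and Birc5 in R6/2 against WT mice without the arrays high in prolactin (adjusted p = 0.066, 0.087, 0.178, 0.147 and 0.137), and for Mad2l1 and Ccnb2 in Dble::R6/2 against Hdac4HET mice with the replicate block (0.25 and -0.36, adjusted p = 0.082 and 0.0611). Without the arrays high in prolactin, Mcm2 and Rb1 changed by 0.30 and 0.34, beside 0.26 and 0.33 in the main fit. Ccnd1, Ccne1 and Birc5 changed by -0.38, 0.22 and 0.34 there, beside -0.47, 0.28 and 0.36. That setting had fewer WT arrays, and over all probe sets it called 4421 higher and 3619 lower, against 6701 and 5426. The cause of the lost calls was not tested. Pearson's r of Cks2 and Tpx2 in R6/2 mice was 0.78 without replicate 2 (exact permutation p = 0.0258, a single test not adjusted over genotypes). As in the main setting, r did not pass with quantile normalization, the mean of all probe sets or without the 2 farthest mice (0.68, 0.69 and 0.61, adjusted exact permutation p = 0.163, 0.147 and 0.400). Spearman's rho passed with quantile normalization (0.82, adjusted exact permutation p = 0.0431), as in the main setting, and not in those other 2 settings. Comparisons of Dble::R6/2 with R6/2 mice and the interaction gave 0 members in all alternatives run. Arrays with the same replicate number in different genotypes correlated between -0.35 and 0.45 in their deviations from the group means, so the pairing was not used. Between Dble::R6/2 and R6/2 mice the range was -0.14 to 0.45. There Dble::R6/2 replicates 2, 7 and 9 correlated best with the R6/2 array of their own number.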
